A study of Rattus norvegicus with 6 samples.

Results

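The carriers that return filtered amino acids to the blood in the proximal tubule were examined as a set of 10 genes: Slc1a1, Slc6a18, Slc6a19, Slc6a20, Slc3a1, Slc7a9, Slc3a2, Slc7a7, Slc7a8 and Slc43a2. They were chosen by name, and all 10 were found among the 17051 genes of the files. Kidney RNA came from 6 male Sprague Dawley rats, each sequenced as a library of its own. The AL group (rats 61, 71 and 88) received standard powdered chow ad libitum, and the HD group (rats 64, 67 and 69) received the same chow mixed with 3 g of amino acids per kg body weight per day, blended to resemble hemoglobin. Both diets lasted 7 days and were followed by surgery under isoflurane, and the age of the rats and the part of the kidney taken for RNA sequencing are not given in the sources used here. The comparison of the groups asks whether a load of amino acids that drives renal ammonia production goes with altered expression of the carriers.

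Amino acids pass freely through the glomerulus and are almost completely recovered by the proximal tubule. Carriers of the apical brush border take them up from the tubular fluid, many of them driven by the sodium gradient, and carriers of the basolateral membrane release them toward the blood. Several carriers work in pairs, in which a heavy chain (Slc3a1 apically, Slc3a2 basolaterally) brings a transporting light chain of the Slc7 family to the membrane. Inherited loss of single carriers causes amino acids to appear in the urine, as in cystinuria (Slc3a1 or Slc7a9), Hartnup disorder (Slc6a19) and lysinuric protein intolerance (Slc7a7). In these data 6 carriers were counted as apical (Slc1a1, Slc6a18, Slc6a19, Slc6a20, Slc3a1 and Slc7a9) and 4 as basolateral (Slc3a2, Slc7a7, Slc7a8 and Slc43a2).

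Total estimated counts ranged from 12499938 to 30466453 per rat. All 10 carriers had at least 30 counts in every rat, from 67 counts of Slc6a19 in rat 61 to 180143 counts of Slc3a1 in rat 69, and all were tested among 11553 genes. The kidney was checked with marker genes of its cell types. Of 11 proximal tubule markers, 10 were higher and 1 was lower in HD rats (median log2 fold change 0.30), beside 51.3% of all tested genes higher. Beside 4.66% of all tested genes, 2 of these markers, Slc34a1 and Slc4a4, were higher at an unadjusted *P* value under 0.05 in edgeR. Slc4a4 (12 to 18 counts in AL rats, 59 to 91 in HD rats) reached the 30 counts needed for testing in HD rats only. So did Slc5a2 (15 to 19 and 24 to 43), which was also among the 10 higher. Summed over all 11 markers, the level overlapped between the groups. It was 13972, 11089 and 9921 CPM (counts scaled to a common library size) in rats 61, 71 and 88. In rats 64, 67 and 69 it was 17080, 16713 and 12574. Markers of vessels divided the rats across the groups. Summed endothelial markers were at 74.0, 86.8 and 52.7 CPM in rats 61, 67 and 64, and at 170.2, 189 and 172 in rats 71, 88 and 69. Smooth muscle markers reached 253 CPM in rat 69, against 43.2 to 110.03 in the other rats. Summed macrophage markers ranged from 37.1 to 102 CPM in AL rats and from 23.3 to 44.5 in HD rats, with all 5 genes lower. Summed podocyte markers did not overlap, at 48.9 to 119 CPM in AL rats and 130.3 to 282 in HD rats, with all 6 genes higher. Slc12a3, the only tested marker of the distal convoluted tubule, did not overlap either. It was at 18.1 to 27.6 CPM in AL rats and 51.5 to 287 in HD rats (log2 fold change 2.93). Of all tested genes, 7.25% did not overlap with HD higher and 7.01% with HD lower. All 4 thick ascending limb markers were lower in HD rats (median log2 fold change -0.14), and their sums overlapped. Both inner medulla markers were lower at an unadjusted *P* value under 0.05 in edgeR (median -1.22), beside 5.94% of all tested genes. Their sums did not overlap. Summed collecting duct markers overlapped, with 2 of 5 genes higher and 3 lower. At an unadjusted *P* value under 0.05 in edgeR, 1 was higher, Slc26a4 (2.30-fold). At that value 2 were lower, Aqp3 (log2 fold change -0.41) and Avpr2 (-0.54), beside 4.66% of all tested genes higher and 5.94% lower. In whole tissue, fewer cells of a type and less RNA per cell cannot be told apart, and the part of these differences in the results below was not tested.

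Per transcript length, the carriers covered a range of 3 orders of magnitude. The level of Slc3a1, the heavy chain of the cystine and dibasic amino acid exchanger, was 4612 TPM (transcripts scaled to length and library) as a mean of the 6 rats, with a range from 4121 to 5024, which placed it 17th among all genes. It took between 78.4% and 81.4% of all counts of the 10 carriers in a rat. Slc6a18, a brush border carrier of glycine and other small neutral amino acids, followed with a mean of 782 TPM and a range from 687 to 852. Neither of these ranges overlapped with that of the next carrier. The basolateral heavy chain Slc3a2 (mean 109 TPM), the glutamate and aspartate carrier Slc1a1 (71.1), the cystine exchanger light chain Slc7a9 (70.96) and the proline carrier Slc6a20 (61.8) formed a middle group in which each range overlapped with the next. Below them, Slc43a2 (mean 15.7 TPM, range 11.2 to 21.6) stood apart from both neighbours in the order. The last 3 carriers overlapped again: Slc7a7 had a mean of 7.18 TPM, Slc7a8 of 4.85 and Slc6a19 of 3.74.

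**Figure D1:**
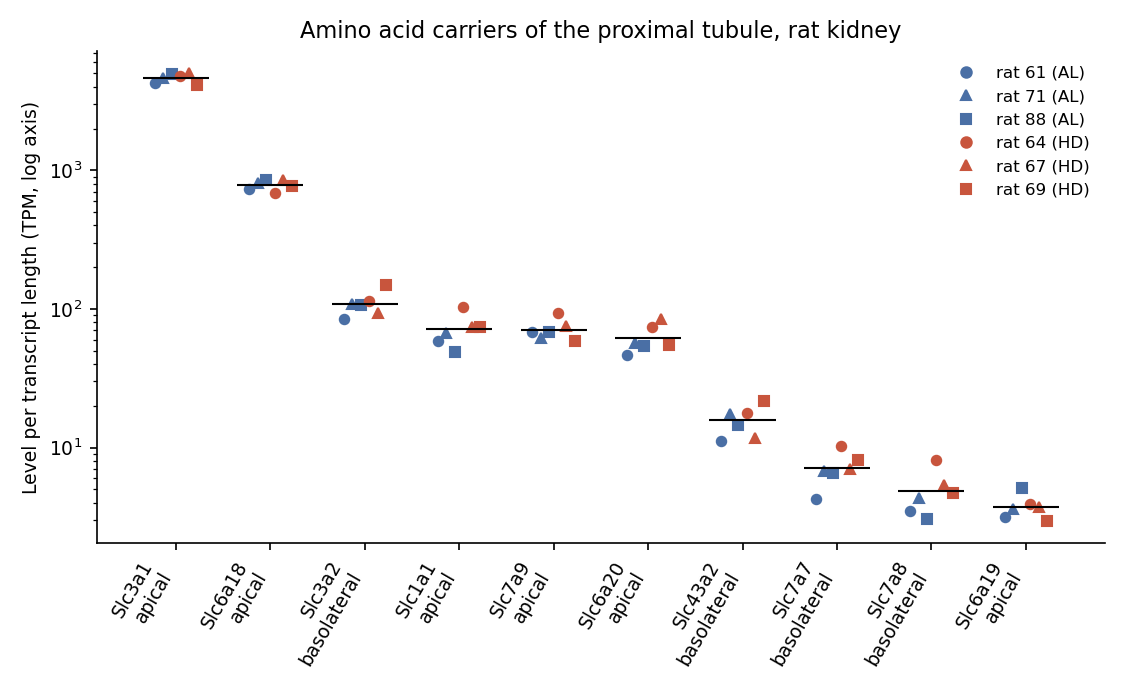
Level of the 10 carriers in each rat, in TPM on a log axis, ordered by the mean of the 6 rats (black line). Blue symbols are AL rats and red symbols HD rats. Slc3a1 lies near 4612 TPM and Slc6a19 near 3.74, and the rats of a gene lie close together compared with the distance between most genes.

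The order of levels did not follow the roles that the carriers are best known for. Slc6a19, known as the main brush border carrier of neutral amino acids, had between 67 and 139 counts per rat, and its neighbour Slc6a18 had between 168 and 262 times its TPM in every rat. The 2 genes lie next to each other on the forward strand of chromosome 1 (rn5), Slc6a19 from 33624561 to 33643500 and Slc6a18 from 33646636 to 33660461, with 3135 bases between them. Slc5a2, the sodium-glucose carrier of the early proximal tubule and a marker fixed for the tissue check, was also low, at 0.83 to 2.15 CPM. The other proximal tubule markers varied widely, with Slc34a1 at 1366 to 3518 CPM, the glucose carrier Slc2a2 at 19.6 to 47.96 CPM and Slc4a4 at 0.79 to 5.43 CPM. By contrast Slc7a13, another light chain that joins Slc3a1 and is known from the late, straight part of the proximal tubule, had a mean of 6012 TPM and ranked 10th among all genes. Its TPM was between 1.08 and 1.47 times that of Slc3a1 in each rat, whereas the TPM of Slc3a1 was between 51.3 and 74.6 times that of its partner Slc7a9. Which parts of the tubule the sampled tissue held was not measured.

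The DNA in front of Slc3a1, the most abundant of the carriers, is shown because its window held the HNF4 motif. The line gives the 250 bases before the annotated start of the gene, 5′ to 3′ on the strand of the gene, from RefSeq for the rat build GRCr8, which is not the build of the counts. Capitals mark letters of the HNF4 motif, a textbook binding sequence of Hnf4a, a transcription factor of proximal tubule and liver. The window is at chr6:15394750-15394999 (reverse strand).
Slc3a1: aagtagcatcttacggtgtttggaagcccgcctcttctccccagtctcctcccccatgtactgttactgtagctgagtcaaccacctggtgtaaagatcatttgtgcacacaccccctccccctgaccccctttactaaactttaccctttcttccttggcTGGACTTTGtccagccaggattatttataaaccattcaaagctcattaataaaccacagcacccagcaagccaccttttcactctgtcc

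The search covered 8 of the 10 carriers (9 windows, since Slc3a2 has 2 starts), with no window for Slc1a1 and Slc6a20. The HNF4 letters CAAAGTCCA, on either strand, were found in 1 of the 9 windows, that of Slc3a1, 89 bases before the start, and in 0.338% of all 33469 windows of the same length. This match describes letters only.

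Between the diets, none of the 10 carriers passed the adjusted threshold of 0.05 in edgeR's quasi-likelihood test, where 0 of all 11553 genes (0.0%) did, and the smallest adjusted *P* value of a carrier was 0.406. DESeq2 gave 0 of 10 as well, against 1.58% of all genes. At an unadjusted *P* value under 0.05 there were 4 carriers in edgeR, against 10.6% of all tested genes in either direction. They were Slc1a1 and Slc6a20 among the apical carriers and Slc7a7 and Slc7a8 among the basolateral carriers, all higher in the HD group, where 4.66% of all genes were higher and 5.94% lower at that value. The same number, 4, was found with DESeq2, against 11.5% of all genes. In these 4 carriers the groups did not overlap, with each HD rat higher (exact permutation test, two-sided, *P* = 0.1 for each, the smallest value that 3 rats against 3 allow). The groups did not overlap in 14.3% of all genes, 7.25% with HD higher and 7.01% with HD lower. The number of carriers under 0.05 changed when single rats were left out. It was 2 without rat 61, 2 without rat 71, 1 without rat 88 and 0 without rat 64. It was 5 without rat 67 or without rat 69. The number over all 11553 genes moved too, from 1224 in the main test. It was 1722, 892 and 605 without rats 61, 71 and 88, and 640, 960 and 1793 without rats 64, 67 and 69.

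**Figure D2:**
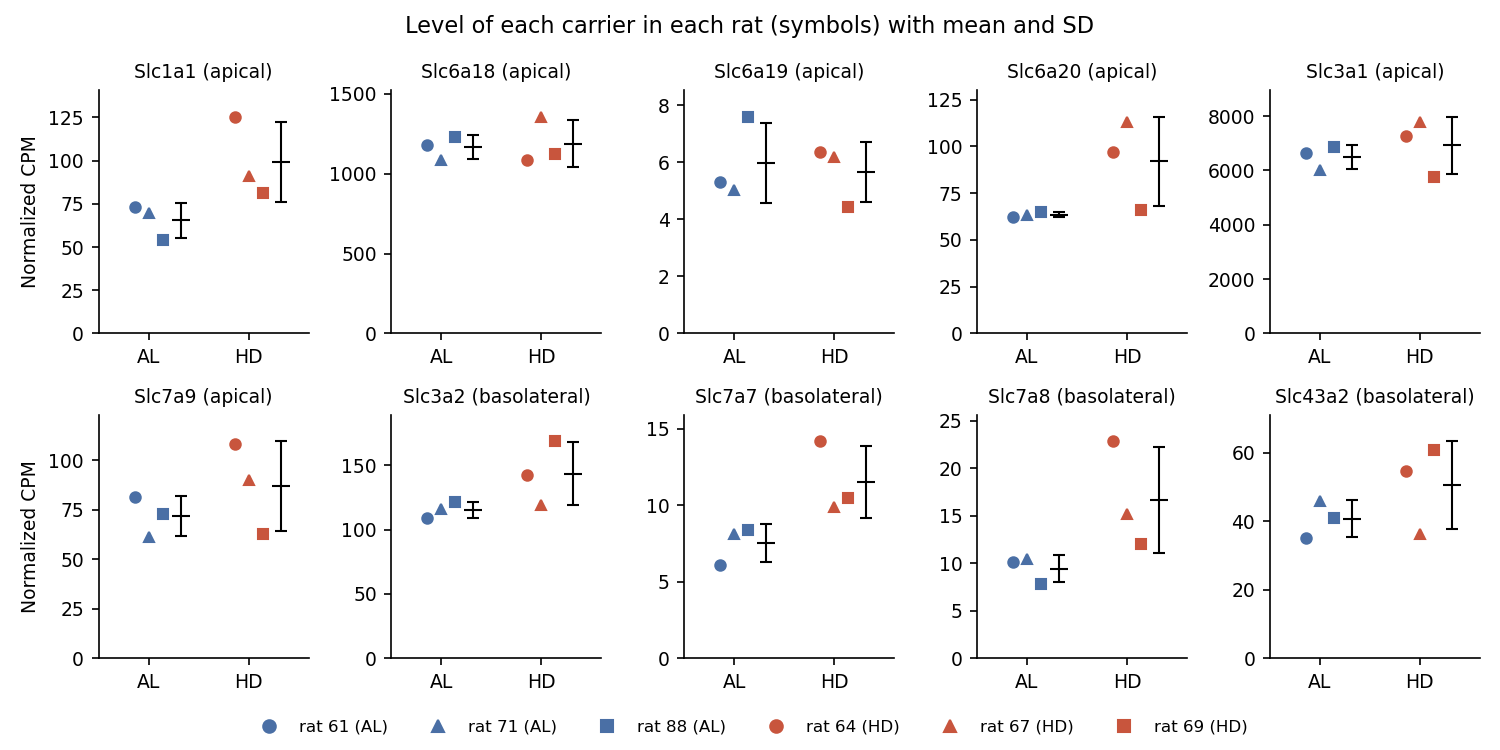
Normalized CPM of each carrier in each rat, with an axis from 0 for each gene. Symbols are rats, and the black bar beside each group gives its mean and SD (n = 3). The groups are separated in Slc1a1, Slc6a20, Slc7a7 and Slc7a8 and overlap in the other 6 carriers.

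Among the apical carriers, Slc1a1 takes up glutamate and aspartate, and its loss causes dicarboxylic aminoaciduria. The gene has 12 exons on the forward strand at chr1:254195480-254274919 (rn5, as for the positions that follow). Its level was 72.9, 69.7 and 53.9 CPM in rats 61, 71 and 88, and 126, 91.4 and 81.4 CPM in rats 64, 67 and 69. Rat 64 was highest by a wide margin and rat 69 was closest to the AL group. The log2 fold change with its SE (standard error) was 0.60 (SE 0.19, edgeR adjusted *P* = 0.406), and it was 0.40 without rat 64.

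Slc6a20 (chr8:131865713-131905845, reverse strand) carries proline and other imino acids with sodium and chloride. The AL rats were close together, at 62.3, 63.3 and 64.8 CPM in rats 61, 71 and 88, whereas the HD rats spread over 97.3, 113 and 65.9 CPM in rats 64, 67 and 69. Rat 69 was thus only just above the AL group. The log2 fold change was 0.53 (SE 0.19, edgeR adjusted *P* = 0.409). It was 0.73 without rat 69 and 0.36 without rat 67. When rats 61 and 69 were both left out, a choice made after the data were examined, it was 0.69 with an edgeR adjusted *P* value of 0.0314 (0.156 to 0.917 over the other alternatives), in a fit in which 6.09% of all genes passed the threshold.

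The exchanger formed by Slc3a1 (chr6:8217549-8251131) and Slc7a9 (chr1:92843093-92865757) takes up cystine, lysine, arginine and ornithine in exchange for neutral amino acids. Slc3a1 was at 6641, 6002 and 6869 CPM in rats 61, 71 and 88 and at 7259, 7787 and 5759.7 CPM in rats 64, 67 and 69. The HD rats lay on both sides of the AL rats, and the log2 fold change was 0.09 (SE 0.17). Slc7a9 was at 81.6, 61.4 and 72.6 CPM in rats 61, 71 and 88 and at 108, 89.8 and 62.8 CPM in rats 64, 67 and 69. Rats 64 and 67 were above the AL group and rat 69 was within it, with a log2 fold change of 0.27 (SE 0.21, edgeR adjusted *P* = 0.713). This value was 0.086 without rat 64, 0.17 without rat 71 and 0.47 without rat 69. The log2 ratio of Slc7a9 to Slc3a1 in TPM was -6.12 ± 0.14 (SD, n = 3) in AL rats and -5.95 ± 0.24 (SD, n = 3) in HD rats.

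The neighbours Slc6a18 and Slc6a19 did not separate the groups. Slc6a18 was at 1181, 1084 and 1229.8 CPM in rats 61, 71 and 88 and at 1083, 1357 and 1123 CPM in rats 64, 67 and 69, with a log2 fold change of 0.03 (SE 0.14, edgeR adjusted *P* = 0.973). The sign of this value changed with library size alone (-0.05). Slc6a19 was at 5.32, 5.04 and 7.61 CPM in rats 61, 71 and 88 and at 6.37, 6.196 and 4.44 CPM in rats 64, 67 and 69. Its log2 fold change of -0.09 (SE 0.27, edgeR adjusted *P* = 0.953) was the only value below 0 among the 10 carriers, and it was 0.13 without rat 88.

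On the basolateral side, Slc7a8 (chr15:37253908-37317161, reverse strand) is a light chain that exchanges neutral amino acids and had the largest fold change of the set. Its level was 10.1, 10.4 and 7.81 CPM in rats 61, 71 and 88 and 22.8, 15.2 and 12.02 CPM in rats 64, 67 and 69. All HD rats were higher than all AL rats, and rat 64 stood above the other HD rats. The log2 fold change was 0.81 (SE 0.26, edgeR adjusted *P* = 0.406), or 1.76-fold, and was 0.53 without rat 64.

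Slc7a7 (chr15:36894261-36938141, reverse strand) is the light chain that releases lysine and arginine toward the blood in exchange for neutral amino acids and sodium. It was at 6.12, 8.09 and 8.40 CPM in rats 61, 71 and 88 and at 14.2, 9.89 and 10.5 CPM in rats 64, 67 and 69. Here too rat 64 was highest, and rat 67, the lowest of the HD group, was still above every AL rat. The log2 fold change was 0.60 (SE 0.23, edgeR adjusted *P* = 0.425). With between 77 and 327 counts per rat, Slc7a7 was measured less precisely than the abundant carriers.

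Slc3a2 (chr1:231843822-231858285, reverse strand), the heavy chain of both of these light chains, was at 109, 116 and 121 CPM in rats 61, 71 and 88 and at 142, 119 and 169 CPM in rats 64, 67 and 69. The AL rats were close together and rat 67 fell among them, while rat 69 was highest. The log2 fold change was 0.32 (SE 0.14, edgeR adjusted *P* = 0.494), and between 91.7% and 98.5% of its counts were assigned to the same 1 of its 2 transcripts. Slc43a2 (chr10:64285713-64327600, reverse strand), which lets branched-chain amino acids, phenylalanine and methionine pass without exchange, was at 35.2, 46.0 and 40.9 CPM in rats 61, 71 and 88 and at 54.7, 36.3 and 60.7 CPM in rats 64, 67 and 69. Rat 67 again fell within the AL group and rat 69 was again highest, and the log2 fold change was 0.31 (SE 0.20, edgeR adjusted *P* = 0.643). Slc3a2 and Slc43a2 were thus highest in rat 69, whereas 5 of the 6 apical carriers (all but Slc6a18, lowest in rat 64) had their lowest HD value in that rat.

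Within a rat, 5 ratios of TPM were compared between the groups, since they do not depend on the scaling of the libraries. The log2 ratio of Slc7a8 to its heavy chain Slc3a2 was -4.60, -4.65 and -5.12 in rats 61, 71 and 88 and -3.80, -4.14 and -4.98 in rats 64, 67 and 69. The groups overlapped because of rat 69, and the difference of 0.48 had an exact permutation *P* of 0.3 (two-sided, 0.7 after adjustment over the 5 ratios). The difference was 0.23 without rat 64, 0.32 without rat 88 and 0.82 without rat 69. For Slc7a7 to Slc3a2 the difference was 0.31 (exact permutation test, *P* = 0.3, adjusted 0.7), with 0.20 without rat 61, 0.15 without rat 64 and 0.49 without rat 69. The difference was 0.16 for Slc7a9 to Slc3a1 (*P* = 0.5), 0.10 for Slc6a18 to Slc6a19 (*P* = 0.6) and 0.18 for Slc7a8 to Slc7a7 (*P* = 0.7), each by the exact permutation test and with an adjusted value of 0.7. None of the 5 ratios separated the groups, and 3 rats against 3 cannot give a *P* value below 0.1. These are ratios in whole tissue. Which cells held the Slc3a2 RNA, and which light chains it was paired with, was not measured.

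Apical and basolateral carriers were then set side by side. Of the 6 apical carriers, 5 were higher in HD rats, and the median log2 fold change over all 6 was 0.18. This median was 0.088 without rat 64, 0.11 without rat 71 and 0.34 without rat 69. All 4 basolateral carriers were higher, with a median of 0.46. Over all tested genes, 51.3% were higher and the median log2 fold change was 0.0067. The difference of the class medians, 0.28, was 0.14 without rat 61, 0.43 without rat 71, 0.48 without rat 67 and 0.09 without rat 69. It was -0.05 when rats 61 and 69 were both left out. In single rats the mean log2 level of the basolateral carriers minus that of the apical carriers, each gene taken as its deviation from its mean over the 6 rats, was -0.28, 0.08 and -0.17 in rats 61, 71 and 88 and 0.20, -0.25 and 0.42 in rats 64, 67 and 69. The groups overlapped, with rat 67 near the lowest AL rat. Summed over the class, basolateral carriers had 160.03, 180.4 and 178 CPM in rats 61, 71 and 88 and 234, 180.8 and 252 CPM in rats 64, 67 and 69, so that rat 67 lay just above the AL group. Most of this sum came from Slc3a2 (mean 115 CPM in AL and 143 in HD rats) and Slc43a2 (40.7 and 50.6). Slc7a7 (7.54 and 11.5) and Slc7a8 (9.44 and 16.7) weighed little in it. The summed apical level was 7286 to 8297 CPM in AL rats and 7097 to 9444 in HD rats. It followed Slc3a1, which outweighs the other apical carriers.

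**Figure D3:**
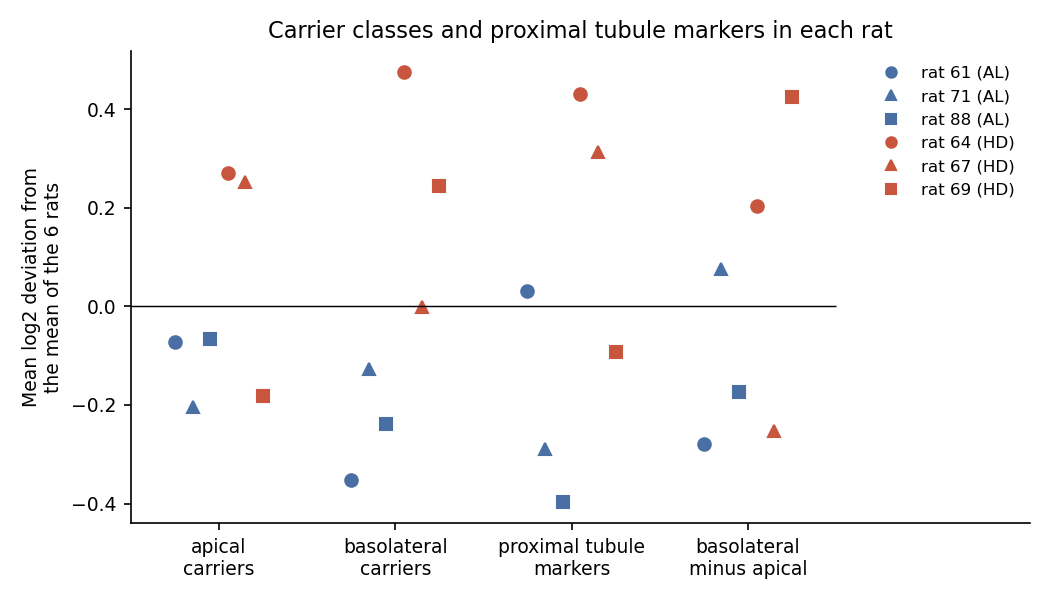
Mean log2 deviation of the apical carriers, the basolateral carriers and the 11 proximal tubule markers from their mean over the 6 rats, and the difference between the carrier classes, in each rat. Among HD rats, rats 64 and 67 lie above all AL rats for apical carriers (0.27 and 0.25) and for proximal tubule markers (0.43 and 0.31). Rat 69 lies among the AL rats in both. For basolateral carriers rats 64 and 69 are highest (0.48 and 0.24), and rat 67 is the lowest HD rat.

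The carriers were also set beside the general markers of their segment. Over the 10 carriers the median log2 fold change was 0.31, and over the 11 proximal tubule markers, which hold no amino acid carrier, it was 0.30. The mean deviation of the markers was 0.03, -0.29 and -0.40 in rats 61, 71 and 88 and 0.43, 0.31 and -0.09 in rats 64, 67 and 69. Rats 64 and 67 thus had the highest values of both the apical carriers and the markers. The basolateral carriers differed, at 0.48, -0.0017 and 0.24 in rats 64, 67 and 69. Rat 67 was the lowest HD rat there, and rat 69 was above all AL rats. Of the markers, the phosphate carrier Slc34a1 had a log2 fold change of 0.70 (SE 0.24, edgeR adjusted *P* = 0.406). That of the bicarbonate carrier Slc4a4 was 1.94 (SE 0.39, edgeR adjusted *P* = 0.338), at 0.79 to 5.43 CPM. When the libraries were scaled to equal mean log2 levels of these markers, the median over all tested genes moved to -0.42. Only 4 of the 10 carriers were above 0, and 9 of 10 were above that median. The scaling used the mean of the 11 markers (deviation -0.22 in AL and 0.22 in HD rats), not their median. Slc4a4 (12 to 91 counts per rat) and Slc5a2 (15 to 43) had full weight in it, and their part in the shift was not tested. Under this scaling Slc7a8 was at 0.35, Slc1a1 at 0.15, Slc7a7 at 0.13 and Slc6a20 at 0.06, and a larger share of proximal tubule in the tissue cannot be told apart from more RNA per cell.

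**Figure D4:**
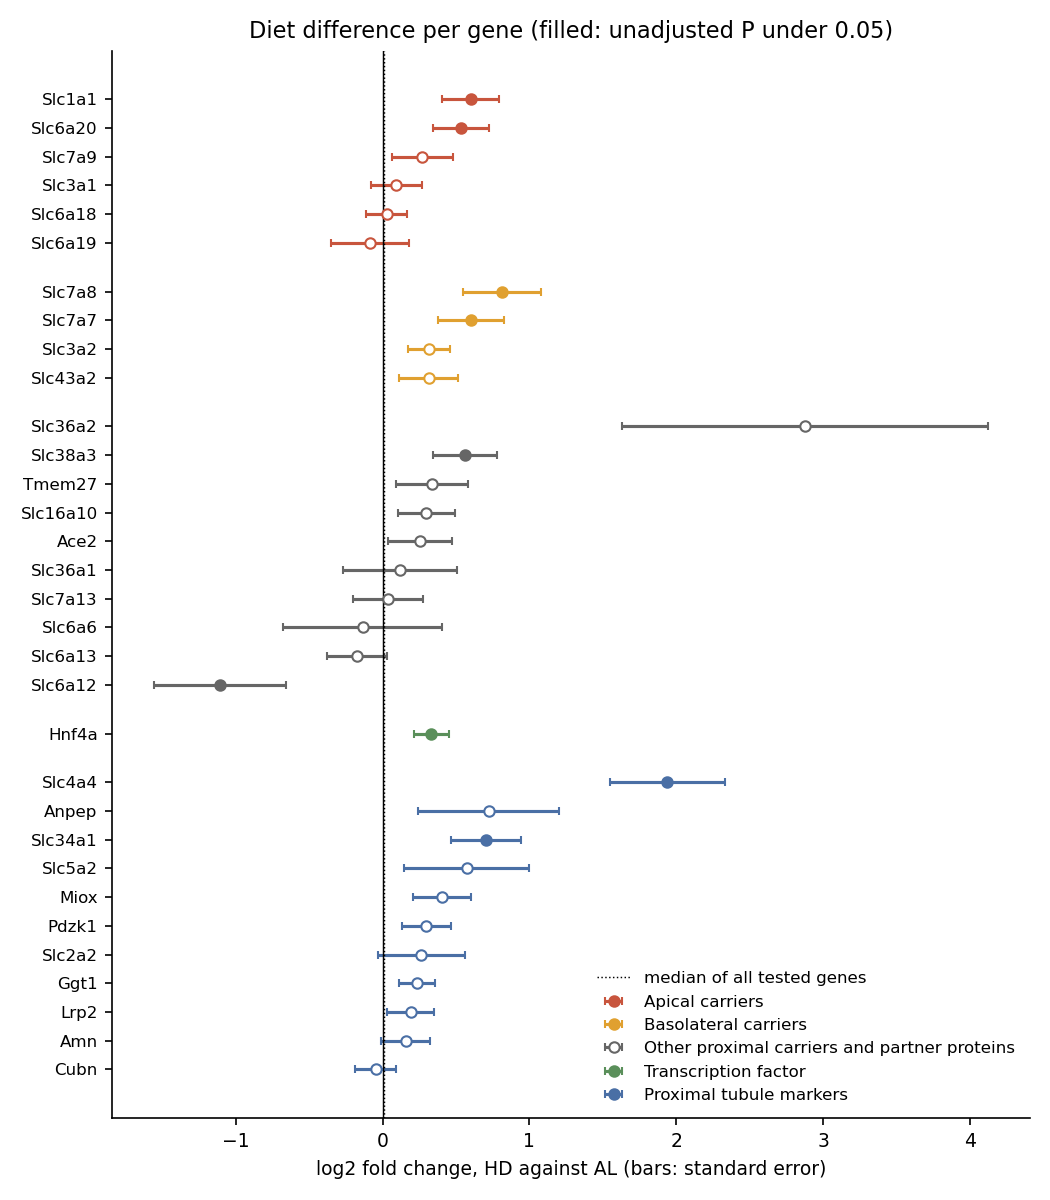
Log2 fold change of HD against AL with its standard error for the carriers, for other proximal carriers and partner proteins, for the transcription factor Hnf4a and for proximal tubule markers. Filled symbols have an unadjusted P under 0.05 in edgeR, and the dotted line is the median of all tested genes (0.0067). The 10 carriers and the markers cover a similar range, apart from Slc4a4 at 1.94. The other proximal carriers and partner proteins spread wider, from -1.11 to 2.88, the latter with 0 to 104 counts per rat.

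Other carriers and partner proteins, mainly of the proximal tubule, were listed for comparison, and 10 of the 11 listed names were tested. Of these, 7 were higher and 3 lower in HD rats (median 0.19 on the log2 scale), beside 51.3% of all tested genes higher. In edgeR 1 in each direction had an unadjusted *P* value under 0.05, Slc38a3 higher and Slc6a12, a carrier of the medulla, lower. Of all tested genes 4.66% were higher and 5.94% lower at that value. Tmem27 (collectrin), which brings Slc6a18 and Slc6a19 to the brush border, was at 917, 697 and 685 CPM in rats 61, 71 and 88 and at 1205, 1055 and 647 CPM in rats 64, 67 and 69. As for Slc7a9, rats 64 and 67 were above the AL group and rat 69 was not, and the log2 fold change was 0.34 (SE 0.24, edgeR adjusted *P* = 0.686). Slc7a13 was at 7169.9, 6314 and 7383 CPM in the AL rats and at 7186, 9209.8 and 5012 CPM in the HD rats, with a log2 fold change of 0.04.

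Slc38a3, the basolateral glutamine carrier of the proximal tubule, was at 686, 448 and 506 CPM in rats 61, 71 and 88 and at 952, 849 and 616 CPM in rats 64, 67 and 69. Only rat 69 fell within the AL range, and the log2 fold change was 0.56 (SE 0.22, edgeR adjusted *P* = 0.440). Slc6a13, a basolateral carrier of taurine and GABA, had a log2 fold change of -0.18 (SE 0.20). Slc6a12, which takes up betaine as an osmolyte in the medulla, was at 14.5, 19.5 and 15.7 CPM in the AL rats. In the HD rats it was at 3.82, 5.15 and 13.7 CPM, lower without overlap, as in 7.01% of all tested genes. Its log2 fold change was -1.11 (SE 0.45, edgeR adjusted *P* = 0.455). The summed inner medulla markers Slc14a2 and Aqp4 were lower in the HD group too, at 159 to 306 CPM in the AL rats and 95.03 to 143 in the HD rats, and their part in the value of Slc6a12 was not tested.

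A further list held mainly amino acid carriers found in many cell types. It also held the peptide carriers Slc15a1 and Slc15a2, both higher in HD rats (log2 fold change 0.58 and 0.16). Of 18 listed genes 16 were tested, 7 higher and 9 lower in HD rats (median -0.07 on the log2 scale). None was higher at an unadjusted *P* value under 0.05 and 3 were lower, Slc7a6, Slc38a2 and Slc38a4, which are named here after their values were seen. Of all tested genes 4.66% were higher and 5.94% lower at that value, and the list was not tested against the proximal tubule carriers. Slc38a4, at 13 to 30 counts in AL rats and 3 to 25 in HD rats, reached the 30 counts needed for testing only in rat 88 (AL). Slc38a2, a sodium-driven carrier that cells induce when amino acids are scarce, was at 293, 254 and 325 CPM in rats 61, 71 and 88 and at 146, 216 and 147 CPM in rats 64, 67 and 69. The groups did not overlap, with HD lower, as in 7.01% of all tested genes. The log2 fold change was -0.78 (SE 0.19, edgeR adjusted *P* = 0.368, DESeq2 adjusted *P* = 0.0127). Slc7a6, the close relative of Slc7a7 that also pairs with Slc3a2, had a log2 fold change of -0.82 (SE 0.27, edgeR adjusted *P* = 0.406), opposite in sign to the 0.60 of Slc7a7. The difference between these 2 genes was not tested.

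The transcription factor Hnf4a, which maintains proximal tubule genes, was at 719, 647 and 703 CPM in rats 61, 71 and 88 and at 920.5, 875 and 806 CPM in rats 64, 67 and 69. Its groups did not overlap, with all HD rats higher, as in 7.25% of all tested genes. The log2 fold change was 0.33 (SE 0.12, edgeR adjusted *P* = 0.409).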

How the data were processed

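Poly(A)-selected RNA of 6 kidneys was sequenced single-end. The authors assigned reads with RSEM 1.1.15 at default parameters to UCSC gene definitions for rn5 and deposited, per transcript and rat, an estimated count and its posterior mean, neither normalized. The authors also deposited TPM, scaled to transcript length and library. Read filters are not given in the sources used here.

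Counts were summed per gene and rounded. Genes with at least 30 counts in at least 1 rat were kept. Rats were grouped by their labelled diet and compared with edgeR 4.0.16 in R 4.3.3 (TMM, quasi-likelihood test, diet as the only factor), with Benjamini-Hochberg adjustment over 11553 genes and a threshold of 0.05. The standard error is the absolute log2 fold change divided by the square root of F. DESeq2 1.42.0 and limma 3.58.1 on log2(TPM + 1) were alternatives. Permutation tests used log2(CPM + 0.5) or log2 TPM ratios over the 10 divisions of the rats. TruSeq v2 libraries carry no strand, and no other listed gene overlapped a carrier. Counts of any 2 rats differed beyond sampling noise (chi-square per degree of freedom at least 24.2). The depth gives at least 67 counts per carrier, and counting error is smaller than the spread between rats (common biological coefficient of variation 0.242). The edgeR fit was tested on simulated data. Carriers and lists were chosen with earlier results of these data known. Named genes are all carriers, listed proximal partners with an unadjusted *P* under 0.05 or a mean TPM above the median carrier (66.4), and Hnf4a, with markers as counts and ranges. Part of what this rule and the motif search cover is left out. The labels pair no rats. In edgeR, *P* values set the group difference against the spread between rats, moderated over all tested genes. Permutation *P* values set it against the differences under the other divisions of the rats.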

Additional observations from a re-analysis of the deposited data

How the results depend on the processing

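No carrier changed its side of the adjusted threshold in the alternatives set beforehand. Among all tested genes the number past it was 0 in the main test, 2 with no filter on low counts, 182 with DESeq2 and 0 to 4 with single rats left out. It was 704 without both rats 61 and 69, which leaves 2 rats per group. The number at an unadjusted *P* under 0.05 was 1224, 2564 under scaling to proximal tubule markers, 605 to 1793 with single rats left out and 2849 without rats 61 and 69. Under scaling to the markers 4 carriers were above 0, none of the 4 carriers named at an unadjusted *P* under 0.05 kept it, and 1 other, Slc3a1, was under 0.05 and lower in the HD group. This scaling gave medians of -0.28 for apical and 0.017 for basolateral carriers, and values of -0.41 for Slc6a18, -0.37 for Slc3a1, -0.20 for Slc7a9, -0.10 for Slc3a2 and -0.11 for Slc43a2. These shifts follow from the higher markers in the HD group. Slc6a18 was -0.053 with library size alone and -0.048 with TPM. With single rats left out, it ranged from -0.079 to 0.090 and Slc6a19 from -0.20 to 0.13, and the carriers under 0.05 numbered 0 to 5. The ratio of Slc6a18 to Slc6a19 ranged from -0.048 to 0.25 and that of Slc7a8 to Slc7a7 from -0.036 to 0.37. Other listed carriers and partner proteins under 0.05 numbered 5, 1 to 8 with single rats left out and 11 without rats 61 and 69. Without those rats 1 carrier passed the adjusted threshold, and the difference between basolateral and apical medians was -0.052. Where no reason is given, the cause was not tested. No paired analysis was possible because the labels give rats of the groups no shared number. Depth limits Slc6a19, Slc7a7 and Slc7a8 most.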
